A study of Mus musculus with 20 samples.

Results

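The comparison described here is that of cone photoreceptors labelled as Dgcr8 knockout with cones labelled wild type at postnatal day 90 (P90), the last age of the series. It rests on 4 of the 20 libraries of the study, 2 labelled KO and 2 labelled wild type, each a table of read counts for 23077 gene symbols. Genes were taken by a threshold on level alone, a mean of at least 5 CPM (counts scaled to library size) over these 4 libraries, which kept 11314 of the 23077 symbols and 98.5% of their reads. Tigd5 at 5.0002 CPM lay just inside the threshold and Tmc7 at 4.9985 CPM just outside. Of the symbols left out, 1227 had no count in any of the 4 libraries.

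The study sorted cones by fluorescence from the retinas of C57BL/6 mice at P30, P40, P50, P60 and P90 and sequenced their RNA, with 2 libraries for each genotype and age. KO animals carried the cone-specific Cre driver D4-cre, the conditional Dgcr8 allele and the Cre-dependent tdTomato reporter Ai9. Wild-type (WT) animals carried D4-cre and Ai9 with intact Dgcr8, so Cre and the reporter were present in both groups. The driver acts after birth in cones, so other retinal cells keep Dgcr8, and the labels do not give the sex of the animals, the number pooled or whether the 2 libraries of a group came from different animals. P-values thus reflect no more than how far libraries of the same group scatter, estimated over all 20 libraries, and that scatter may be technical.

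Dgcr8 is the RNA-binding partner of the nuclease Drosha. Together they cut the hairpin of a microRNA out of its primary transcript, Dicer1 then trims the hairpin to the mature microRNA, and an Argonaute protein carries it to messenger RNAs that match its seed, which are then degraded or translated less. Cones are the photoreceptors of daylight vision, and mouse cones make a short-wavelength opsin (Opn1sw), a middle-wavelength opsin (Opn1mw) or both, packed into an outer segment that is renewed throughout life.

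Printed here from RefSeq (GRCm38.p6) are 5 mature microRNAs, chosen among those whose primary transcript, or a hairpin of whose cluster, could be read in these libraries. The seed, bases 2 to 8, is in capitals. The seed is the part that pairs with the target.
miR-29c-3p: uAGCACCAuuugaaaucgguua
miR-29b-3p: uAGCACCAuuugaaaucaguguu
miR-182-5p: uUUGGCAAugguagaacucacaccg
miR-96-5p: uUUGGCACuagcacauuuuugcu
miR-183-5p: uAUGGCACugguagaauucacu
miR-29c and miR-29b share the same seed. The hairpins Mir29b-2 (chr1:195037040-195037120, plus strand) and Mir29c (chr1:195037547-195037634, plus strand) lie within the span of the long non-coding gene A330023F24Rik (chr1:195017399-195037908). Mir182 (chr6:30165918-30165992), Mir96 (chr6:30169446-30169551) and Mir183 (chr6:30169668-30169737) lie together on the minus strand of chromosome 6 and form a cluster known for its high level in photoreceptors.

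At P90 a large part of the transcriptome differed between the genotypes. In edgeR's quasi-likelihood test at a Benjamini-Hochberg adjusted p below 0.05, 1808 genes were higher in KO (16.0% of those tested) and 1461 were lower (12.9%). Of these 3269 genes, 3255 had both KO libraries on the same side of both WT libraries. Over all 11314 genes tested, both KO libraries lay above both WT libraries in 3528 and below them in 3541. A change of at least 2-fold was reached by 485 of the higher and 452 of the lower genes, and of at least 4-fold by 96 and 56. Tested against a 2-fold change in place of no change, 156 genes were higher and 102 lower. The median log2 fold change over all genes tested was -0.03.

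The 4 libraries held 3329605 and 3832379 counts in WT and 5603987 and 5207466 in KO, within the range of 2237624 to 10373206 over the series. The nuclear long non-coding RNA Malat1 took 4.25% and 5.43% of counts in WT and 12.1% and 12.0% in KO. Reads over 1420 olfactory and vomeronasal receptor genes, which retina is not known to express, made up 0.107% and 0.0757% of counts in WT and 0.0518% and 0.0495% in KO. Cone-defining genes were present in every library, and so were genes of rods. Summed over 10 rod markers, the level was 12872 and 13111 CPM in WT and 14003 and 14277 CPM in KO. In bulk RNA, fewer cells of a type and less RNA per cell cannot be told apart.

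**Figure D1:**
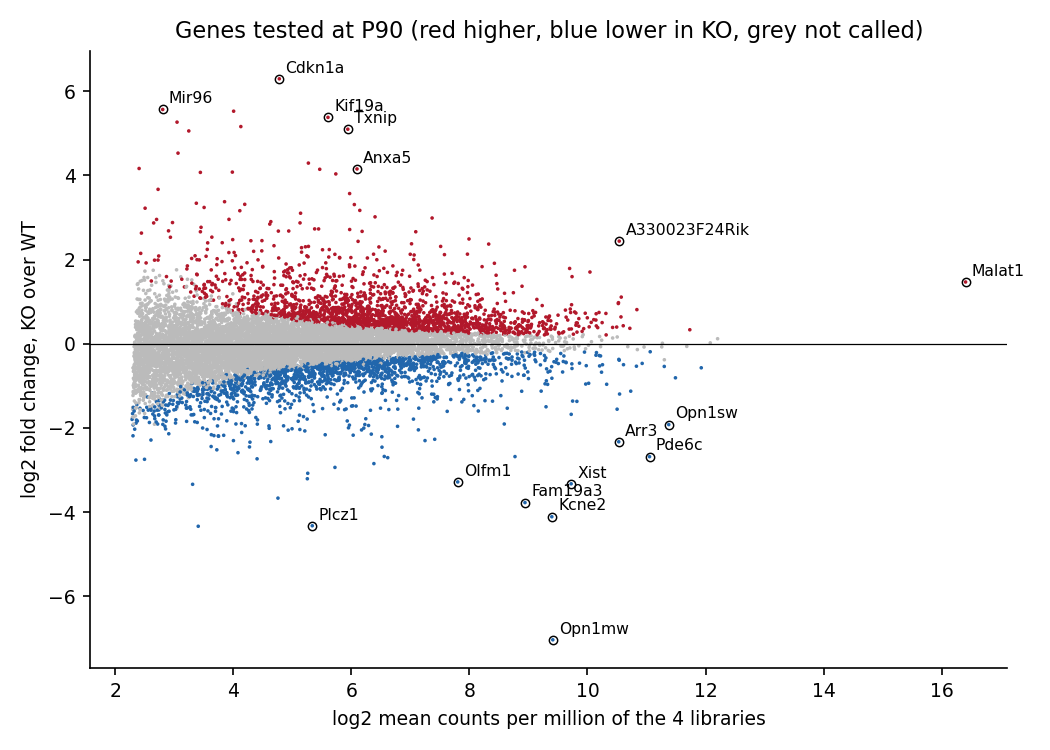
Log2 fold change of KO over WT at P90 (vertical axis) against the log2 mean level of each of the 11314 genes in CPM (horizontal axis). Genes called higher are red, genes called lower blue and the rest grey, and 16 genes are labelled. Opn1mw lies lowest among the labelled genes, at -7.04, and Cdkn1a highest, at 6.30.

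The targeted gene itself was not called. Dgcr8 was read at 89.2 and 98.2 CPM in the WT libraries and at 77.9 and 92.6 CPM in the KO libraries, so the groups overlapped (log2 fold change -0.14, SE 0.140, adjusted p = 0.506). At P30, P40, P50 and P60 the same log2 fold change was -0.89, -0.76, -0.68 and -0.31. The P90 value was less negative than the mean of the 4 earlier ages, with an adjusted p of 0.0217 in edgeR's test of that difference. Counts are summed over the whole gene, and the labels do not say which exons the allele removes. Drosha overlapped as well, at 92.8 and 77.2 CPM in WT and 98.4 and 89.2 CPM in KO.

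The host of the miR-29 hairpins was among the genes of smallest p that rose. A330023F24Rik, whose hairpins' mature sequences are shown above, was at 465 and 460 CPM in WT and at 2504 and 2518 CPM in KO. Both KO libraries lay far above both WT libraries, a 5.43-fold difference (log2 2.44, SE 0.072, edgeR adjusted p = 3.57e-28). The symbol Mir29c stood at 5.89 and 5.80 CPM in WT and at 43.5 and 44.2 CPM in KO, a log2 fold change of 2.90 (SE 0.298). Mir29b-2 stood at 1.96 and 3.03 CPM in WT and 24.2 and 28.5 CPM in KO, a log2 fold change of 3.38 (SE 0.387). These hairpins lie inside the host gene and no source used here gives the strand setting of the counting, so their reads cannot be told apart from those of the host.

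Mir96 had 2 and 0 counts in the WT libraries and 66 and 73 in the KO libraries. Against library size this was a ratio of 51.3, with an exact 95% interval of 13.9 to 428 that covers counting error only. With Mir3078 (log2 0.81), 4 of the 12 microRNA genes tested were higher, against 16.0% of all genes, and the other 8 did not pass the test. Mir96 and Mir29b-2 averaged under 5 CPM in WT and passed the level threshold through the KO libraries, where they were high, so this count is partly set by the threshold. The files list 578 microRNA genes, and those not tested lay under the level threshold.

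Of 31 tested longer transcripts that hold microRNAs, 13 were higher, 1 was lower and 17 did not pass the test. Over all genes 16.0% were higher and 12.9% lower. The median log2 fold change was 0.43 against -0.03 over all genes. The miR-17 cluster host Mir17hg went from 17.1 and 19.4 CPM to 45.6 and 39.3 CPM, and Srebf2, host of miR-33 and regulator of sterol genes, from 42.9 and 38.4 CPM to 128 and 124 CPM. Pank3, a coenzyme A synthesis enzyme that hosts miR-103, went from 136 and 147 CPM to 262 and 271 CPM. The member that fell was Trpm1, host of miR-211 and a channel of bipolar cells, from 306 and 225 CPM to 135 and 136 CPM.

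Of 22 genes of the microRNA pathway, 9 rose, 1, the export factor Ran (log2 -0.65), fell and 12 did not pass the test, with a median log2 fold change of 0.31. Over all genes the shares were 16.0% higher and 12.9% lower. Dicer1 rose from 224 and 187 CPM to 367 and 354 CPM (log2 0.81, SE 0.095). The silencing scaffolds Tnrc6b (log2 0.93) and Tnrc6a (0.82) and the deadenylase scaffold Cnot1 (0.75) were among those that rose. Tnrc6b stood at 637 and 534 CPM in WT and at 1107 and 1120 CPM in KO, with no overlap in it or in Dicer1.

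Genes reported elsewhere as microRNA targets were described as 3 lists drawn up with earlier results of these data known, beside shares of 16.0% higher and 12.9% lower over all genes. Of 23 tested targets of miR-124, a neuronal microRNA, 14 rose and 1 fell, with a median log2 fold change of 0.88. Anxa5, a phosphatidylserine-binding annexin, went from 10.4 and 4.29 CPM in WT to 126 and 133 CPM in KO, 17.8-fold. Cd164, a sialomucin, went from 57.5 and 49.97 CPM to 183 and 177 CPM, the integrin subunit Itgb1 from 62.0 and 56.3 CPM to 163 and 163 CPM, and the splicing repressor Ptbp1 from 21.0 and 17.9 CPM to 53.7 and 48.2 CPM. In each of these the KO libraries lay above the WT libraries. The member that fell was the monocarboxylate transporter Slc16a1 (log2 -0.73).

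For targets of the miR-182, miR-183 and miR-96 cluster the median was nearer to that of all genes. Of 28 tested, 9 rose and 1 fell, with a median of 0.24. The one that fell, the actin-binding Mtss1 (log2 -0.46), was not called without WT replicate 2 (adjusted p = 0.187), KO replicate 1 (0.0551) or KO replicate 2 (0.154). The glucocorticoid receptor Nr3c1 went from 158 and 143 CPM to 344 and 355 CPM (log2 1.22). The GTPase Rac1 (log2 0.98) and the adenylyl cyclase Adcy6 (0.68) also rose. Egr1 and Itgb1 stand in this list and in that of miR-124.

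Targets of miR-29 moved in both directions, with 10 of 29 tested higher, 3 lower and a median of 0.19. Among those that rose, the DNA methyltransferase Dnmt3a was at 247 and 222 CPM in WT and 531 and 546 CPM in KO, and the methylcytosine dioxygenase Tet3 at 139 and 138 CPM and 289 and 272 CPM. Insig1, which holds back sterol synthesis, had a log2 fold change of 2.13 and the pro-apoptotic Bmf 1.92. The growth factor Vegfa fell from 166 and 185 CPM to 52.4 and 37.3 CPM (log2 -1.96), and Tet1, of the same family as Tet3, fell by 1.06. The collagens Col3a1 and Col1a2, usual miR-29 targets in fibroblasts, were not called, at log2 0.12 and -0.34.

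Seed matches were counted without reference to reported targets. Of the tested genes, 10850 had an annotated 3′ untranslated region (UTR) in GENCODE M21, and a match was the reverse complement of bases 2 to 8 anywhere in the longest one. Genes with the miR-29 site TGGTGCT had a median log2 fold change of 0.061 and those without it -0.036. The medians were 0.053 and -0.029 for miR-182, 0.063 and -0.029 for miR-183, and 0.072 and -0.028 for miR-96. Each of these differences is under 0.1 on the log2 scale. With UTR length and GC content in a linear fit, the slope on having a match was 0.087 for miR-182, 0.049 for miR-183, 0.089 for miR-96 and 0.068 for miR-29.

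Over the 13 microRNAs of retina in the table the slope ranged from -0.016 to 0.089. Over 5 microRNAs of blood, muscle, heart or gut it ranged from 0.0008 to 0.047, so the ranges overlapped. The largest difference of medians among the 18, 0.126, was that of miR-451a, a microRNA of red blood cells, with 294 matched genes. miR-124 was not searched, since its mature sequence was not used here. Genes with a match had longer UTRs, with medians of 2459 to 3197 bases over the 18 microRNAs. Genes are not replicates, and no test was made of these values.

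Of the 22 genes of cone phototransduction, all tested, 16 fell and 2 rose, against 12.9% and 16.0% of all genes, with a median log2 fold change of -0.56. Opn1mw (chrX:74127466-74150756) was read at 1252 and 1454 CPM in WT and at 13.1 and 7.33 CPM in KO, a 131-fold fall (log2 -7.04, SE 0.123, edgeR adjusted p = 3.05e-36). Opn1sw (chr6:29376671-29380513) was at 4177 and 4242 CPM in WT and at 1115 and 1107 CPM in KO, a 3.79-fold fall (log2 -1.92, SE 0.052). Both opsins fell without overlap, and the fall of Opn1mw was far larger than that of Opn1sw.

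The share of Opn1mw in the counts of both opsins does not depend on library size. It was 23.1% and 25.5% in the WT libraries. In the KO libraries it was 1.16% (69 of the reads, Wilson 95% interval 0.915% to 1.46%) and 0.658% (36 reads, 0.475% to 0.909%). In KO at P60 the share was 16.7% and 16.3%, and at P40 it was 42.8% and 42.7%. The P90 KO libraries lay under every other library of the series by this measure.

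The enzymes and channels of the cascade followed in order of size. Pde6c, the catalytic subunit of cone phosphodiesterase, went from 3241 and 4105 CPM to 595 and 548 CPM, 6.43-fold lower (log2 -2.68, SE 0.067). Arr3, cone arrestin, went from 2260 and 2672 CPM to 482 and 499 CPM, 5.03-fold lower (log2 -2.33, SE 0.067). Gnat2, the alpha subunit of cone transducin, went from 1951 and 2378 CPM to 757 and 716 CPM, 2.94-fold lower (log2 -1.56, SE 0.067). In all 3 the genotypes were far apart, and the WT libraries lay further from each other than the KO libraries did.

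The cyclic-nucleotide-gated channel fell in both subunits, Cnga3 from 376 and 417 CPM to 134 and 152 CPM and Cngb3 from 639 and 659 CPM to 291 and 302 CPM. Guca1a, which activates guanylate cyclase when calcium is low, went from 1162 and 1314 CPM to 475 and 488 CPM. Smaller falls were found for the GTPase activator Rgs9 (log2 -0.57), the phosphodiesterase inhibitor Pde6h (-0.54), the opsin kinase Grk1 (-0.54) and recoverin, Rcvrn (-0.46).

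The members of the cascade did not all fall. The transducin beta subunit Gnb3 was at 828 and 986 CPM in WT and 1024 and 1017 CPM in KO (log2 0.17, edgeR adjusted p = 0.0593). The gamma subunit Gngt2 (log2 -0.10), phosducin, Pdc (-0.06), and Guca1b (0.08) overlapped between genotypes. The members that rose were the guanylate cyclase Gucy2f (0.48) and the sodium-calcium exchanger of rods, Slc24a1 (0.38), the former not called without WT replicate 2 (adjusted p = 0.0711). Opn1mw and Arr3 lie on the X chromosome, whose genes are described further on.

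**Figure D2:**
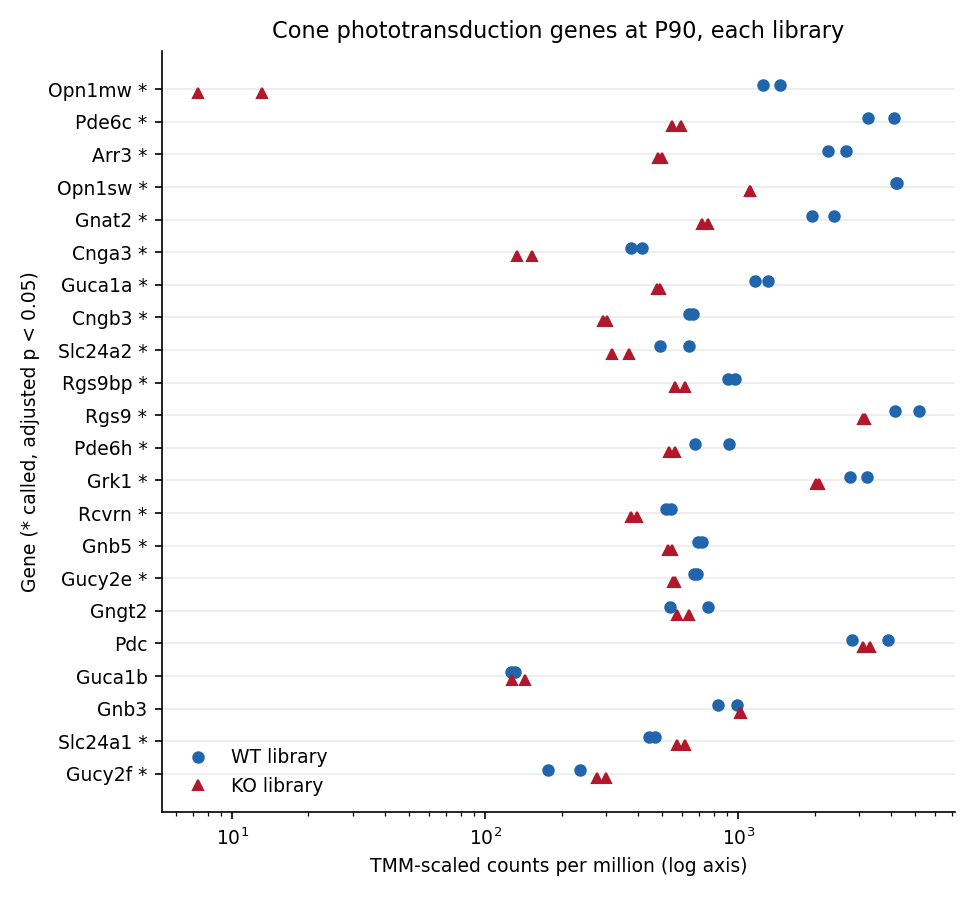
Level in CPM (horizontal axis, log scale) of the 22 genes of cone phototransduction (vertical axis) in each P90 library, WT as blue circles and KO as red triangles, with a star at genes called by edgeR. The span between genotypes runs from the overlap of Gngt2 to the fall of Opn1mw from 1252 and 1454 CPM to 13.1 and 7.33 CPM.

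Genes outside the cascade fell by more than Gnat2. Kcne2, an accessory subunit of potassium channels, went from 1014 and 1533 CPM to 73.0 and 74.3 CPM, 17.3-fold lower (log2 -4.11, SE 0.110). The secreted factor Fam19a3 went from 818 and 1014 CPM to 79.3 and 54.2 CPM, 13.7-fold lower (log2 -3.78, SE 0.106). Olfm1, a secreted olfactomedin, went from 420 and 389 CPM to 40.3 and 42.8 CPM, and the junctional adhesion molecule Jam3 from 173 and 167 CPM to 24.97 and 27.1 CPM. In none of these genes did the genotypes overlap, which was a condition for naming the genes of smallest p, such as Kcne2 and Fam19a3. The WT libraries of Kcne2 lay far from each other.

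Promoter sequence was examined for the genes of the cascade. RefSeq windows of 300 bases, from 250 before to 50 after a start site (GRCm38.p6), were searched on both strands for TAATCC, the core that the photoreceptor homeodomain factors Crx and Otx2 bind, which reads GGATTA in the other direction. Among the 22 cascade genes 15 had a window, and 5 of these held a match, against 7.14% of the 8987 tested genes with a window and 7.06% of all 32851 windows. Of the 12 that fell and had a window, 4 held a match, and the other gene with a match, Gucy2f, rose and was the one cascade gene with 2 matches. Matches are printed in capitals in the first 2 sequences, for genes that fell with a match near the start, and the third is the gene with the largest fall, in which the window holds none.
Gnat2 (chr3:108092816-108093115, plus strand): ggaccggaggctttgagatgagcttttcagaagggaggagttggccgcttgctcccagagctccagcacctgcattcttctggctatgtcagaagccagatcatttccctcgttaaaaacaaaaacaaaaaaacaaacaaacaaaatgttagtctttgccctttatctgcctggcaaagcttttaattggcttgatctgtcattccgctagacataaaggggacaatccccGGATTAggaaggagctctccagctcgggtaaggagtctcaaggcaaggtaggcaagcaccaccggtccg
Guca1a (chr17:47400557-47400856, minus strand): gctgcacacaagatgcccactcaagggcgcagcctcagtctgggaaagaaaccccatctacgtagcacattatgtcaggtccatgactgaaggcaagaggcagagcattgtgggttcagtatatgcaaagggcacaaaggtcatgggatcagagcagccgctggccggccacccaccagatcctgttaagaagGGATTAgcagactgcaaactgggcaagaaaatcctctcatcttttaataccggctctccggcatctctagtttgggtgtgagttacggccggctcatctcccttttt
Opn1mw (chrX:74127216-74127515, plus strand): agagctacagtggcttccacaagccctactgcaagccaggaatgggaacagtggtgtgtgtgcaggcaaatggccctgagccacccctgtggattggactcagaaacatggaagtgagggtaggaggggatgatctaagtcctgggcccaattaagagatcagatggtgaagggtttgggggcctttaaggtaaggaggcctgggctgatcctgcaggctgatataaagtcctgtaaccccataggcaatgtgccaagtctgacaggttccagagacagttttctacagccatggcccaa
The match begins 19 bases before the start site in Gnat2 and 57 before it in Guca1a. A match is a description of the letters. Crx itself was at 1098 and 1267 CPM in WT and at 1389 and 1347 CPM in KO (log2 0.21, edgeR adjusted p = 0.0221). That call was lost with scaling on abundant genes (adjusted p = 0.134), with the 4 libraries fitted alone (0.102), and without WT replicate 1 (0.299), KO replicate 1 (0.140) or KO replicate 2 (0.0582).

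Transcription factors of photoreceptors moved in both directions, with 9 of 20 tested higher and 5 lower, against 16.0% and 12.9% of all genes. With scaling on abundant genes 6 were higher and 5 lower. Factors tied to cone identity were among those that fell. Rxrg, a retinoid receptor that holds back Opn1sw, went from 58.3 and 65.9 CPM to 21.4 and 19.3 CPM (log2 -1.61), and Sall3, a zinc-finger factor of cones, from 92.6 and 84.3 CPM to 34.2 and 25.2 CPM (-1.57). The thyroid hormone receptor Thrb, needed for Opn1mw, fell less, from 763 and 823 CPM to 591 and 588 CPM (-0.43). Factors that rose included Samd11 (1.35), Pias3 (0.78) and Rax (0.66), while Otx2 overlapped between genotypes. The count of 9 was 4 without KO replicate 1, and 6 to 8 without any other library.

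Of 20 structural genes of the outer segment 9 fell and 4 rose, against 12.9% and 16.0% of all genes, with a median of -0.16. The polarity gene Crb1 went from 504 and 464 CPM to 186 and 189 CPM, and the tip-link cadherin Pcdh15 from 2594 and 2076 CPM to 1061 and 1076 CPM. The disc-forming prominin Prom1 rose from 736 and 768 CPM to 1238 and 1248 CPM, and Impg2, a proteoglycan around photoreceptors, rose by 0.72 on the log2 scale. The count of 9 was 5 without WT replicate 2 and 6 without KO replicate 1.

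Of 30 genes of the photoreceptor synapse 15 fell and 4 rose, against the same shares of all genes, with a median of -0.35. The ribbon-synapse complexins Cplx4 (707 and 924 CPM to 391 and 356 CPM, log2 -1.13) and Cplx3 (449 and 548 CPM to 287 and 316 CPM, -0.72) both fell. The calcium-binding Cabp4 (-0.77), the synaptic adhesion protein Lrit3 (-1.12) and the vesicle protein Rab3a (-0.89) fell as well. Cacna2d4, a subunit of the cone calcium channel, was in the smaller group that rose, from 619 and 589 CPM to 1052 and 1088 CPM.

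**Figure D3:**
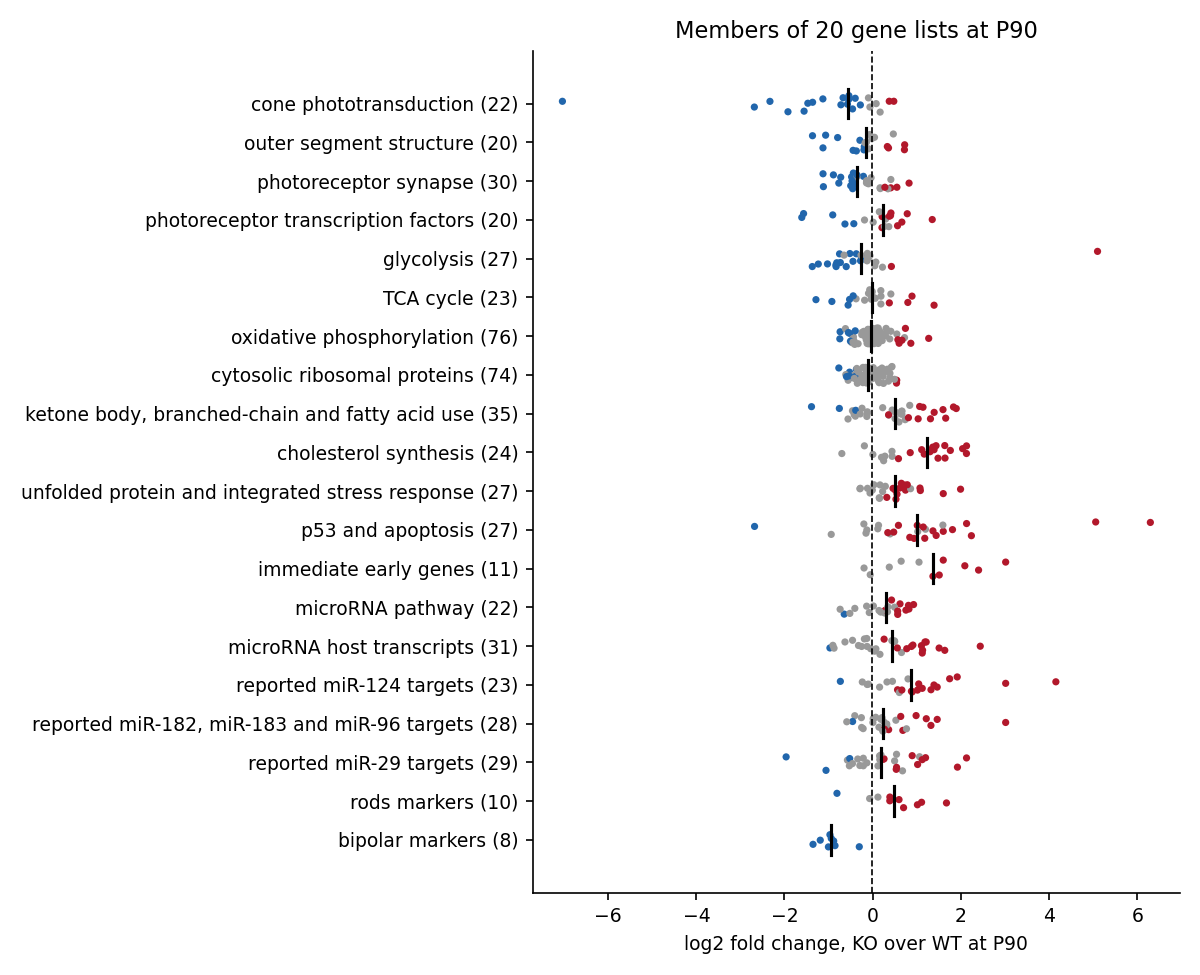
Log2 fold change of KO over WT at P90 (horizontal axis) of each tested member of 20 gene lists (rows), red where called higher, blue where called lower and grey otherwise. Black bars are the medians of the lists, which run from -0.95 for bipolar markers to 1.37 for immediate early genes, and the dashed line is the median of all genes, -0.03.

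Among genes of energy use, 14 of 27 tested genes of glycolysis fell and 2 rose, against 12.9% and 16.0% of all genes, with a median of -0.28. Hexokinase 2, Hk2, the entry step in photoreceptors, went from 1129 and 1479 CPM to 516 and 494 CPM (log2 -1.37), and the enolase Eno2 from 470 and 569 CPM to 230 and 212 CPM (-1.23). Ldha, lactate dehydrogenase, rose by 0.42. Txnip, which limits glucose uptake and is induced by glucose, went from 3.65 and 3.28 CPM to 127 and 111 CPM, 34.3-fold higher (log2 5.10, SE 0.321), and passed the level threshold through the KO libraries.

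Of 35 genes for the use of ketone bodies, branched-chain amino acids and fatty acids, 11 rose, 3 fell and 21 did not pass the test, with a median of 0.51 and against 16.0% higher and 12.9% lower over all genes. The ketone-body enzyme Oxct1 went from 133 and 127 CPM to 444 and 483 CPM (log2 1.83), and the aminotransferase Bcat1 from 409 and 441 CPM to 1255 and 1313 CPM (1.60). The fatty acid enzymes Acadvl (85.3 and 98.2 CPM to 297 and 282 CPM) and Cpt1a (179 and 205 CPM to 409 and 397 CPM) rose too. Ppargc1a, a coactivator of mitochondrial genes, was among those that fell (-0.76). In all of the genes named here the genotypes did not overlap, as held for 3255 of the 3269 genes called.

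Oxidative phosphorylation had few calls. Of 76 tested members 6 rose and 6 fell, with a median of -0.04, against 16.0% and 12.9% of all genes. Both counts moved with the library left out, to 2 and 9 without WT replicate 1, 8 and 1 without WT replicate 2, 5 and 3 without KO replicate 1, and 4 and 4 without KO replicate 2. Of 23 tested genes of the citric acid cycle list 4 rose and 5 fell. The isocitrate dehydrogenases moved in both directions, the cytosolic Idh1 at 1.39 and the mitochondrial Idh3a at -1.29. Idh2, also mitochondrial, was called higher, a call lost with any 1 P90 library left out (log2 0.72 to 0.89).

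Of 24 tested genes of cholesterol synthesis 16 rose, against 16.0% of all genes, and the other 8 did not pass the test, with a median log2 fold change of 1.23. The synthase Hmgcs1 went from 103 and 126 CPM to 316 and 307 CPM, and the methylsterol oxidase Sc4mol from 48.2 and 46.9 CPM to 210 and 205 CPM. The squalene epoxidase Sqle (2.04) and Insig1 (2.13) rose with them, as did Srebf2, described above with the host transcripts.

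Of 27 tested genes of p53 and apoptosis 16 rose and 1 fell, against 16.0% and 12.9% of all genes, with a median of 1.01. Cdkn1a and Phlda3, among the 16, averaged under 5 CPM in WT and passed the level threshold through the KO libraries, where they were high. The cell-cycle inhibitor Cdkn1a had 4 and 1 counts in the WT libraries and 276 in each KO library, a ratio of 81.5 (exact 95% interval 34.7 to 252, counting error only). Phlda3, an Akt inhibitor, had 2 counts in each WT library and 71 and 115 in KO, a ratio of 34.3 (13.2 to 127). Trp53inp1, a p53-induced stress gene, went from 86.4 and 99.4 CPM to 402 and 412 CPM (log2 2.13), and Ccng1, cyclin G1, from 188 and 159 CPM to 392 and 396 CPM (1.18). Bax, which opens the outer mitochondrial membrane, was not called (1.20, edgeR adjusted p = 0.0640).

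Of 27 genes of the unfolded protein response 15 rose, against 16.0% of all genes, and the other 12 did not pass the test, with a median of 0.52. Atf3, among the 15, averaged under 5 CPM in WT and passed the level threshold through the KO libraries, where it was high. The chaperone Hspa5 went from 809 and 805 CPM to 1269 and 1205 CPM, and the disulphide isomerase Pdia3 from 127 and 117 CPM to 250 and 262 CPM. Hsp90b1 (0.74), Dnajb9 (1.08) and Atf4 (0.55) rose, and Ddit3 and Xbp1 overlapped between genotypes. Xbp1 protein is made from a spliced form that gene counts do not show.

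Of 25 immediate early genes 11 passed the level threshold, and 6 of these rose, against 16.0% of all genes, with a median of 1.37. Junb, among the 6, averaged under 5 CPM in WT and passed the threshold through the KO libraries, where it was high. Egr1 went from 12.6 and 24.2 CPM to 153 and 148 CPM (log2 3.02), and Jund and Jun rose by 2.09 and 1.51. Fos, the usual marker of recent stimulation, was not called (log2 0.65). Among 11 genes of retinal stress and gliosis 4 rose and 2 fell, against 16.0% and 12.9% of all genes. Lifr, receptor of leukaemia inhibitory factor, rose from 112 and 95.9 CPM to 520 and 555 CPM, and Stat3, which acts under it, from 81.6 and 87.1 CPM to 166 and 182 CPM. The metal-binding Mt1 fell from 166 and 246 CPM to 50.9 and 68.4 CPM.

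Markers of other retinal cells differed between the genotypes too. Of 10 rod markers 7 were higher and 1 lower, against 16.0% and 12.9% of all genes, with a median of 0.49. The rod factor Nr2e3 rose from 83.3 and 116 CPM to 321 and 315 CPM, Pde6a of rod phosphodiesterase from 938 and 991 CPM to 2054 and 2107 CPM, and rod arrestin, Sag, fell from 3373 and 3957 CPM to 2095 and 2086 CPM. The 12 cone markers summed to 18262 and 21753 CPM in WT and to 7504 CPM in each KO library. Of these markers 9 were lower and 1 higher, beside the same shares of all genes.

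All 8 bipolar-cell markers fell, against 12.9% of all genes, with a median of -0.95. They summed to 819 to 970 CPM in WT and 512 to 514 CPM in KO. Without WT replicate 1 the call held for 4 of the 8, and without any other library for 6 or 7. Of 3 tested horizontal-cell markers 2 were lower, of 5 of ganglion cells 2 were lower, and of 7 of amacrine cells 1 was higher and 1 lower. Over all genes 16.0% were higher and 12.9% lower. The 2 ganglion-cell calls were lost with a threshold of at least 1 CPM. The 7 markers of Müller glia summed to 890 to 1088 CPM in WT and to 971 CPM in both KO libraries, and the 7 of vessels to 92.1 to 105 CPM in WT and 128 to 142 CPM in KO. Dkk3 of Müller glia was called lower, but not without WT replicate 1 (adjusted p = 0.455) or KO replicate 2 (0.119), and Kdr of vessels higher, but not without WT replicate 2 (0.0994) or KO replicate 2 (0.101). Among 6 markers of microglia, 6 of lens and 3 of red blood cells none reached the threshold, and Hbb-b1 and Hba-a2 were at 0 in all 4 libraries. The part of these other cells in the changes of the synapse genes, the rod-shared cascade genes and the stress genes was not tested.

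X- and Y-linked genes differed as well, and the sex of the animals is not in the labels. Xist, expressed from the inactive X of females, was at 1811 and 1265 CPM in WT and 151 and 155 CPM in KO. The Y genes Ddx3y (57.8 and 64.3 CPM to 299 and 309 CPM), Uty (56.4 and 55.8 CPM to 160 and 190 CPM), Eif2s3y (35.1 and 34.1 CPM to 143 and 133 CPM) and Kdm5d (27.8 and 27.3 CPM to 91.2 and 104 CPM) were all higher in KO. All 4 libraries held reads of both kinds, in different proportions by genotype. Of 387 tested genes on the X chromosome 41 were higher and 93 lower (24.03%), with a median of -0.22. On the autosomes 1757 of 10852 were higher (16.2%) and 1360 lower (12.5%), with a median of -0.02. Sex and genotype cannot be told apart from these libraries, for the X-linked genes Opn1mw and Arr3 or for any other gene. Opn1sw, Pde6c, Gnat2, Cnga3, Cngb3 and Guca1a are autosomal, and an effect of sex on them was not tested.

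The earlier ages differed by gene. At P50 the log2 fold change was -0.04 for Opn1mw, -0.11 for Pde6c, -0.35 for Fam19a3 and -0.38 for Arr3, but -0.69 for Opn1sw and -1.13 for Kcne2. At P30 it was already -0.55 for Opn1sw and -0.66 for Arr3. At P60 it was -2.50 for Opn1mw, -1.42 for Pde6c and -2.17 for Fam19a3. The mean level of Opn1mw in KO was 1903, 2142, 1315 and 356 CPM at P30, P40, P50 and P60 before 10.2 ± 4.05 CPM (SD, n = 2) at P90. In WT it was 1416, 1324, 1356 and 2017 CPM at the earlier ages and 1353 ± 143 CPM at P90. Pde6c in KO stood at 4782, 4003, 3519, 2058 and 572 CPM in the same order of ages. Opn1sw in KO stood at 3782, 2871, 2767, 1805 and 1111 CPM, against 4210 to 6608 CPM in WT.

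**Figure D4:**
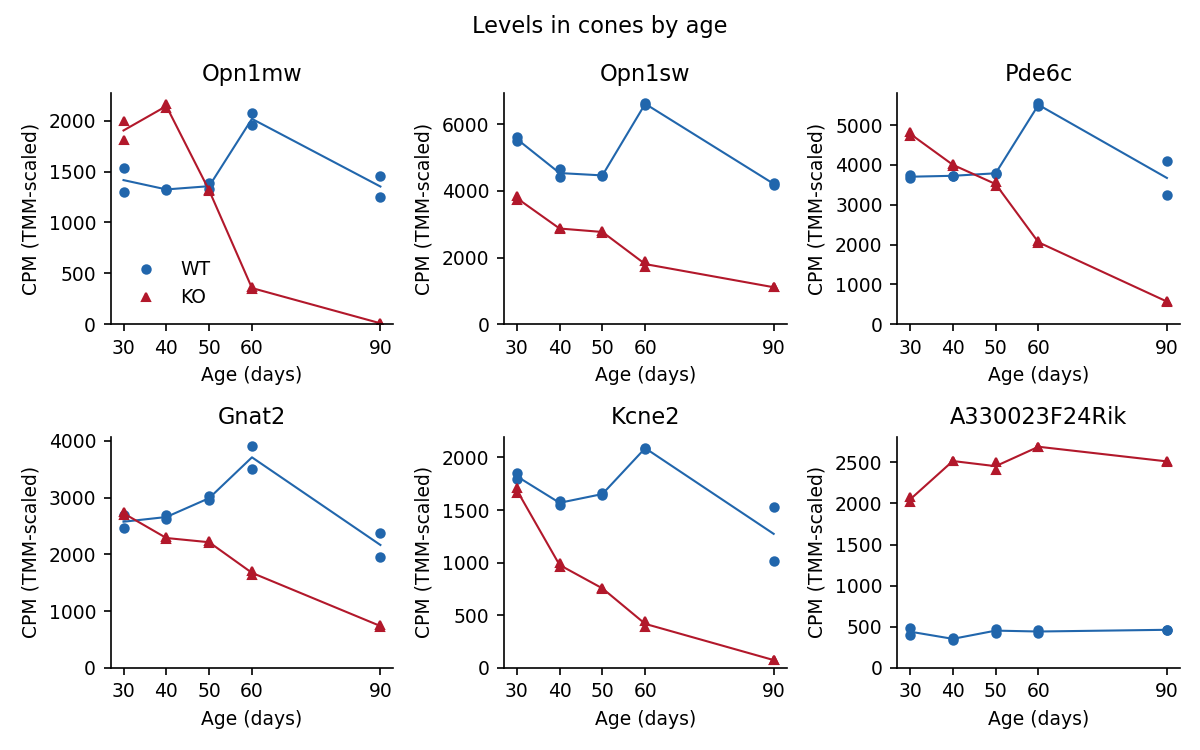
Level in CPM (vertical axis, from 0) of 6 genes in every library of the series against postnatal age in days (horizontal axis), WT as blue circles and KO as red triangles, with lines through the group means. In KO, Opn1mw goes from a mean of 356 CPM at P60 to 10.2 CPM at P90, while A330023F24Rik lies above WT at each age.

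The change of the genotype difference from P60 to P90 was tested directly. In edgeR's test 345 genes had a more positive difference at P90 (3.05% of those tested) and 1044 a more negative one (9.23%). Opn1mw had a difference more negative by 4.54 on the log2 scale (-2.50 at P60, adjusted p = 2.05e-25), Kcne2 by 1.79, Fam19a3 by 1.61, Pde6c by 1.26 and Arr3 by 0.85. Between the same ages the Xist difference changed by -4.75. A change in sex balance thus cannot be told apart from age in these values, those of X-linked Opn1mw and Arr3 among them. The difference of Opn1sw was -1.87 at P60 and -1.92 at P90, a change of -0.05 (SE 0.071, adjusted p = 0.732). Of the 22 cascade genes 9 became more negative and 3 more positive. Of 27 genes of p53 and apoptosis 4 became more positive and 1 more negative, and the counts were the same for the 27 of the unfolded protein response. Trp53inp1 was more positive by 1.00 and Hspa5 by 0.77.

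The P60 WT libraries bear on the genes that became more negative. They detected 13988 and 14139 genes at 10373206 and 9821447 counts, against 19279 to 20731 in the P90 libraries. Of the 1044 genes 85 had no count in P60 WT and 132 had 3 or fewer over both libraries, and 688 were not called at P90. The median log2 fold change of the 1044 was 1.23 at P60 and -0.43 at P90. Of the 345 that became more positive none had 0 counts in P60 WT. With only the 8 libraries of these ages fitted, 553 genes were more negative in place of 1044. The part of gene detection in these counts was not tested.

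Against the mean of the differences at P30 to P60, 523 genes were more positive at P90 (4.62%) and 757 more negative (6.69%). Malat1 was more positive by 0.74 and Hook3, a dynein adaptor, by 1.08, and Arr3 was more negative by 1.72 and Fam19a3 by 3.16. This comparison and that with P60 share the P90 libraries, and the limit on sex balance given above holds for both. The count of 523 became 325 without WT replicate 2, 323 without KO replicate 1 and 295 without KO replicate 2, and 1012 with P60 left out of the mean.

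Most P90 calls were not confined to that age. Of the 1808 higher genes 1321 were also called higher at P60 and 443 at all 5 ages, and of the 1461 lower genes 865 were lower at P60 and 79 at all ages. The other way round, 260 of the higher and 346 of the lower genes were called in that direction at P90 alone, which is a count of calls and not a test of the difference.

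**Figure D5:**
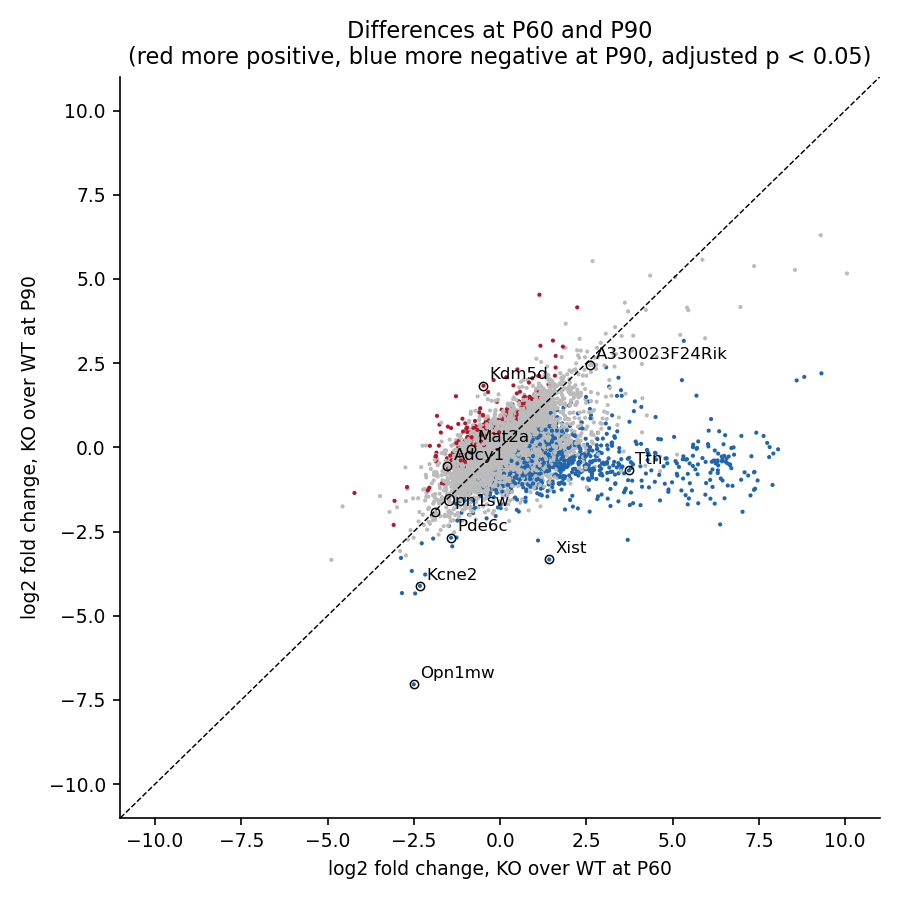
Log2 fold change of KO over WT at P90 (vertical axis) against that at P60 (horizontal axis) for the 11314 genes, red where the difference was more positive at P90, blue where more negative and grey where not called, with the diagonal dashed. Opn1mw lies at -2.50 and -7.04, under the diagonal, and Opn1sw lies near it at -1.87 and -1.92.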

How the data were processed

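The authors deposited unscaled whole-number counts per gene symbol for 20 libraries of sorted mouse cones. Per the labels' protocols, 150 ng of total RNA, extracted with Trizol or a PicoPure kit, was made into libraries with the ScriptSeq Complete Low Input kit and sequenced in pools of 4, and the labels do not say which library had which kit or pool. The submitters' processing notes name CASAVA 1.8.0 and the build GRCm38 (mm10). The aligner, the counting program and the annotation were not given in the sources used here, nor was the strand setting. The files' 2 unnamed entries, with 7 counts in the 4 P90 libraries, were left out.

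Genes averaging 5 CPM or more over the P90 libraries were tested with edgeR 4.0.16 (R 4.3.3, limma 3.58.1): TMM scaling, 1 coefficient for each of 10 groups, the quasi-likelihood test, and Benjamini-Hochberg adjustment over all 11314 genes at 0.05. Levels are TMM-scaled CPM, and the SE is the log2 fold change over the root of the F statistic. Groups came from the labels. The test was checked on simulated counts. The members and gene lists were chosen with earlier results of these data known. Named genes are the 15 of smallest p each way whose groups did not overlap, the next 6 of largest fold each way, the 6 of smallest p each way in the comparisons with earlier ages, the 4 of smallest p in each list and a fixed set of cone and microRNA genes. Names of the form Rik, Gm, LOC or Mir were passed over except in that set. Other list members named in the text were chosen after their values were seen. Some genes that the rule names are left out of the text. Symbols were matched to RefSeq GRCm38.p6, 10195 directly, 1049 by synonym and 70 not at all. Over all genes tested, deviations of same-numbered libraries of the 2 genotypes had a correlation of 0.01 at P90, and no library was a copy of another. Alternatives were other scaling factors, level thresholds and tests (DESeq2 1.42.0), a replicate block, other sets of libraries and leaving out each P90 library. Intervals for shares of counts are Wilson 95% intervals and cover counting error only. Figures were drawn with matplotlib 3.10.9.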

Additional observations from a re-analysis of the deposited data

Results flagged for a closer look

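Differences between genotypes that changed with age, by the edgeR test of the change itself at a Benjamini-Hochberg adjusted p below 0.05, are given here as log2 values for the genes of smallest p in each direction. No explanation of them was tested.

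From P60 to P90 the difference between KO and WT changed by -4.54 for Opn1mw, -1.26 for Pde6c and -1.79 for Kcne2. The potassium channel gene Kcnma1 changed by -1.61, from 0.29 at P60 to -1.32 at P90. The muscle titin gene Ttn changed by -4.42, from 3.73 at P60, when the WT libraries held 4.97 and 2.04 CPM, to -0.69 at P90, when the WT libraries held 151 and 134 CPM and the KO libraries 88.4 and 88.6 CPM.

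In the other direction, the adenylyl cyclase Adcy1 changed by 0.98, from -1.53 at P60 to -0.55 at P90. The methionine adenosyltransferase Mat2a changed by 0.80, from -0.84 to -0.04, and at P90 its groups overlapped (571 and 611 CPM in WT, 563 and 590 CPM in KO).

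Xist changed by -4.75 from P60 to P90, from 1.42 to -3.33. The Y genes changed by 1.81 for Ddx3y, 1.99 for Uty, 2.19 for Eif2s3y and 2.31 for Kdm5d. Against the mean of P30 to P60 the changes were -5.00 for Xist, 1.90 for Ddx3y, 1.84 for Uty and 2.34 for Eif2s3y. The Xist difference was 0.68 at P30, 5.57 at P40 and -0.98 at P50, so the direction varied by age.

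Against the mean of P30 to P60 the changes were -6.68 for Opn1mw, -2.42 for Pde6c, -3.05 for Kcne2, -3.16 for Fam19a3 and -1.72 for Arr3. Genes with a more positive difference were Malat1 (0.74), Hook3 (1.08) and the p53-induced Trp53inp1 (1.62), whose difference was 0.04, 0.30, 0.55, 1.13 and 2.13 over the 5 ages.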

How the results depend on the processing

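No log2 fold change of the 185 named genes that was called changed sign under other scalings, filters, tests or sets of libraries. The balance of calls did turn, as given here. The P90 counts of 1808 higher and 1461 lower genes ranged from 1526 to 1892 and from 1125 to 1798 over other scalings, filters, DESeq2, fits of the 4 libraries alone and the replicate block, and leaving out 1 library gave 1408 to 1525 and 1014 to 1186. TMM factors from abundant genes gave 1526 higher and 1798 lower, so that lower calls outnumbered higher ones. Against a fold of 2, 156 genes were higher and 102 lower. On autosomes alone, added after seeing the data, 1559 were higher and 1563 lower.

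The change from P60 was less stable. In place of 345 more positive and 1044 more negative genes, a mean of at least 1 CPM gave 784 and 1639, no filter 883 and 1748, and a fold of 2 gave 6 and 219. Fitting only the libraries compared gave 297 and 553, and leaving out 1 library gave 239 to 365 and 750 to 1002. Against the mean of P30 to P60, in place of 523 and 757, at least 1 CPM gave 346 and 904, no filter 311 and 1011, and a fold of 2 gave 18 and 36. Leaving out 1 library gave 295 to 478 and 509 to 745. Leaving P60 out of that mean, chosen after seeing the data, gave 1012 and 1077. The cause of these moves was not tested, apart from the stricter fold.

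The labels share replicate numbers, and correlations of deviations between same-numbered libraries over all genes tested lay between -0.02 and 0.02. A correlation over all genes cannot show whether a shared pool or kit acted on some of them. With the replicate block the counts were 1765 higher and 1385 lower at P90, 309 and 978 against P60, and 482 and 716 against P30 to P60.

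Of 185 named genes 184 kept direction and call with abundant-gene scaling, DESeq2 and the block, 179 without a filter, 174 to 177 with 1 library left out and 98 against a fold of 2. Most of these genes were named for small p in the main fit, which favours keeping the call. Of all 1808 higher and 1461 lower genes at P90, abundant-gene scaling kept 1526 and 1461, and no filter kept 1781 and 1073. With 2 libraries a group, genes near 5 CPM rest on few counts in the WT libraries, which held 3329605 and 3832379 in all.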
